A study of Mus musculus with 12 samples.

Results

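The Wnt signal at the cell surface is set by secreted ligands, their receptors and secreted proteins that block either, and the genes for these were followed in mouse embryonic stem cells (ESCs) and embryoid bodies (EBs) with and without the heterochromatin proteins HP1β and HP1α. Members were taken by symbol alone: every gene with a single symbol on the array that is Wnt, Fzd, Dkk or Sfrp followed by a number with an optional a or b, together with Dkkl1 and Frzb. This gave 39 genes of the 19938 measured, of which 19 encode Wnt ligands, 10 Frizzled receptors, 5 the Dickkopf family and 5 the secreted Frizzled-related proteins, with Frzb counted among the last. Only Wnt4 had a second array row, and the row with the higher mean signal was used. No filter on signal was applied, so every member was tested.

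RNA was hybridised to 12 Affymetrix whole-transcript arrays, 2 biological replicates in each of 6 groups. The groups were HP1βKO (Cbx1 knockout), HP1αKO (Cbx5 knockout) and wild-type (WT) EBs at day 7, and ESCs of the same 3 genotypes. The ESCs grew on mitomycin-treated mouse embryonic fibroblast feeders and were sorted for the surface antigen SSEA1 before RNA was taken; the EBs formed in suspension without leukaemia inhibitory factor and held mixed cell types. No group received a treatment. The labels give the line R1 for both knockouts and HM1 for WT, while the methods call HM1 the littermate control of the knockouts, so that line and genotype cannot be told apart by the labels. Each genotype is 1 line, and nothing states whether replicates were separate cultures, so the p-values measure the spread between these libraries, which may be technical.

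Wnt proteins bind Frizzled receptors on the receiving cell, with Lrp5 or Lrp6 as co-receptor in the β-catenin branch and other partners in the branches that direct cell polarity. Dickkopf proteins bind the co-receptor, whereas secreted Frizzled-related proteins carry a Frizzled-like domain and bind the ligand. In the early mouse embryo Wnt signals are needed for the primitive streak and the mesoderm that comes from it, and in ESC culture β-catenin signalling favours self-renewal.

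Signals are log2 values. A signal of 45, log2 5.49, was used as a floor below which a gene was read as not clearly detected. By that measure 24 of the 39 members (61.5%) exceeded the floor on at least 1 array, against 54.6% of all genes, and 8 exceeded it on all 12 arrays. The Frizzled-related proteins did so in 5 of 5 cases, the receptors in 9 of 10, the Dickkopf family in 3 of 5 and the ligands in 7 of 19. Each EB library held 17 to 20 members above the floor and each ESC library 11 to 18. The targeted genes were checked first. Cbx1 was at 7.73 and 7.67 in EB HP1βKO and 7.59 and 7.99 in ESC HP1βKO, against 9.36 to 10.05 in every other library. Cbx5 was at 9.20 and 9.21 in EB HP1αKO, against 10.36 and 10.40 in EB WT. In ESCs it opposed the labels of the second replicates: it was at 8.04 and 9.99 in the libraries labelled ESC HP1αKO and at 9.66 and 8.29 in those labelled ESC WT. For results that use these ESC libraries, differences are also given without the second replicates of ESC HP1αKO and ESC WT. That leaves 1 ESC library in each of these groups, both replicate 1, so the spread within them is not measured. In such a fit the spread comes from the EB groups and ESC HP1βKO, and no calls are given. Differences between replicates of the members had an SD of 0.79 in ESC WT and 0.68 in ESC HP1αKO, against 0.15 to 0.23 in EBs. Comparisons within EBs were fitted on EB arrays alone and do not use these libraries. Pluripotency markers summed to 1743 to 3805 in linear signal over the EB libraries and to 12670 to 19830 over the ESC libraries, with all 8 above the floor in every ESC group.

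The promoters of 4 members that differed among EBs are shown, chosen with their values known, as examples of different patterns (Dkk2 and Fzd1 higher in both knockouts, Wnt1 lower in HP1βKO, Dkk1 lower in HP1βKO and higher in HP1αKO). RefSeq sequences on GRCm38.p6 covered 250 bases before and 50 after each start, and 27 of the 39 members had at least 1, with 30 promoters in all; Sfrp1, Fzd3, Fzd2, Fzd8, Dkk3 and Wnt8a are among those without one. Capitals mark CTTTGA, a form of the core of the Tcf/Lef recognition sequence, or the TATA box letters, TATAAA, read on both strands. Other forms of the Tcf/Lef core, such as CTTTGT, were not searched for, so a promoter without capitals may still hold them.
Dkk2, chr3:132085042-132085341, plus strand: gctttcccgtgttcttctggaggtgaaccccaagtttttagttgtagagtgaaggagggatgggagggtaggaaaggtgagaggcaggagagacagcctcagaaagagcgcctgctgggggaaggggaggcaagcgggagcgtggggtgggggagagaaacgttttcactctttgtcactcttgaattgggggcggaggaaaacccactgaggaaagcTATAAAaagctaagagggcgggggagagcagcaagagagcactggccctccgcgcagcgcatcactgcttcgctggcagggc
Fzd1, chr5:4758167-4758466, minus strand: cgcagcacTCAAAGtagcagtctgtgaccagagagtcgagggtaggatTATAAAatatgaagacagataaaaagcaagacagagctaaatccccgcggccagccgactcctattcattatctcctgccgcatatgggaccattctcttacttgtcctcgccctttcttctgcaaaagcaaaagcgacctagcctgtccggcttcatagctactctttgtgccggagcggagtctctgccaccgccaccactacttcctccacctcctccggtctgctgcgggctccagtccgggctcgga
Wnt1, chr15:98789607-98789906, plus strand: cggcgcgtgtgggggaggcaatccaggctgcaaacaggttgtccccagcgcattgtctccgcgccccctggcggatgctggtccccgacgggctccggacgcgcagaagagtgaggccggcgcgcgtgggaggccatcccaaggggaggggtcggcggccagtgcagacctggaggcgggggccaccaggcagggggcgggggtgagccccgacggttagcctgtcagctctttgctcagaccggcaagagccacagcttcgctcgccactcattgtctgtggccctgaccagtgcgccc
Dkk1, chr19:30549447-30549746, minus strand: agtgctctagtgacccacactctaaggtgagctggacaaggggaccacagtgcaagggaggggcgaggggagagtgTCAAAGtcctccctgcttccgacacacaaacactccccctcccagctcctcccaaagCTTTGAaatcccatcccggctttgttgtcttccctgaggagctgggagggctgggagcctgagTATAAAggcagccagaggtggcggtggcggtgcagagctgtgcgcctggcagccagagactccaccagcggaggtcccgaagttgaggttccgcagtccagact
CTTTGA on either strand was present in 5 of the 30 member promoters (16.7%) and in 16% of all 32851 promoters of this length. TATAAA was found in 4 of 30 (13.3%), against 13.6% of all. GGGCGG, the core of the GC box, was found in 22 of 30 (73.3%), against 35.7% of all, and the median member promoter held 25 CG dinucleotides, against 7 over all promoters. Among those shown, Dkk1 has 2 matches to CTTTGA, at bases 77 and 134, and TATAAA at base 197, Fzd1 has 1 of each at bases 9 and 49, Dkk2 has TATAAA at base 219, and Wnt1 has neither.

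**Figure D1:**
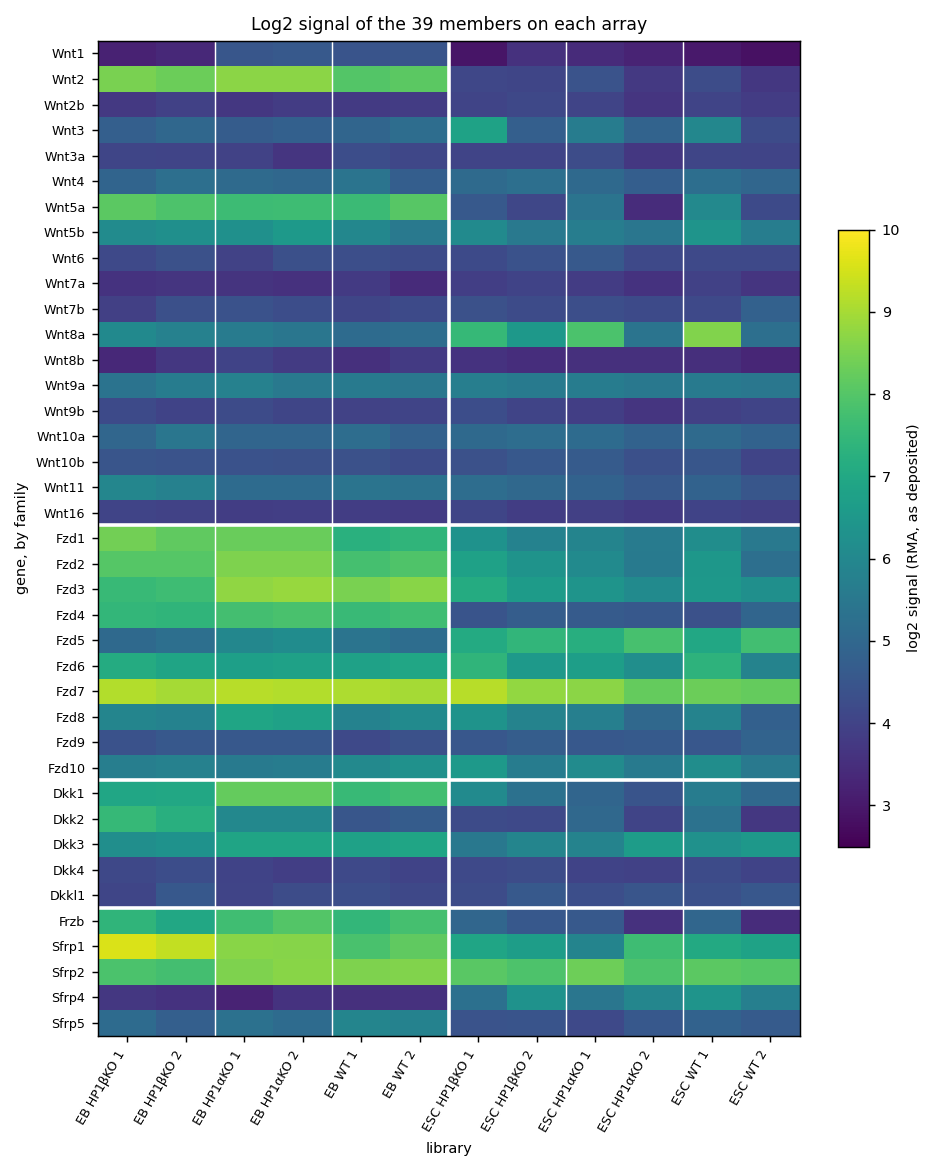
Log2 signal (colour) of the 39 members (rows, by family) in each of the 12 libraries (columns, EBs left of ESCs). Wnt2, Frzb, Fzd4 and Dkk1 are brighter in all 6 EB libraries than in any ESC library, Fzd5 and Sfrp4 are darker, and most ligands are dark throughout.

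The comparison of knockout with WT EBs asks which Wnt components differed once each genotype had differentiated for 7 days. Loss of HP1β was accompanied by a shift among the secreted antagonists: Dkk2 and Sfrp1 were higher and Dkk1, Dkk3, Sfrp2 and Sfrp5 lower than in EB WT. Among receptors Fzd1 was higher and Fzd3 lower, and among ligands Wnt8a and Wnt11 were higher and Wnt1 lower. In HP1αKO the receptors Fzd1, Fzd2, Fzd5 and Fzd8 were higher and Fzd10 lower, with Dkk1, Dkk2, Sfrp1 and Wnt2 higher and Sfrp5 lower. These are RNA amounts in mixed cell populations, in which fewer cells of a type and less RNA per cell cannot be told apart.

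At an adjusted p below 0.05 (limma, adjusted over all 19938 genes), 11 of 39 members were called in EB HP1βKO against EB WT, 5 higher and 6 lower, or 28.2%, where 8.56% of all genes were called (4.35% higher and 4.21% lower). In EB HP1αKO against EB WT 10 members were called, 8 higher and 2 lower, or 25.6%, where 5.04% of all genes were called (3.03% higher and 2.01% lower). Between the knockouts, 12 members were called in EB HP1βKO against EB HP1αKO, 3 higher and 9 lower, or 30.8%, against 9.77% of all genes (4.13% higher and 5.64% lower). The median difference from WT was 0.03 over the members and 0.03 over all genes in HP1βKO, and 0.09 over the members and 0.01 over all genes in HP1αKO. All 3 comparisons share libraries: both knockouts were set against the same EB WT pair. In these, 17 members were called at least once and 22 in none. Calls shared between comparisons were not counted over all genes, so these counts have no background to be set against. Of the 5 called in both knockouts against EB WT, Dkk2, Fzd1 and Sfrp1 were higher in both, Sfrp5 was lower in both, and Dkk1 was lower in HP1βKO and higher in HP1αKO.

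**Figure D2:**
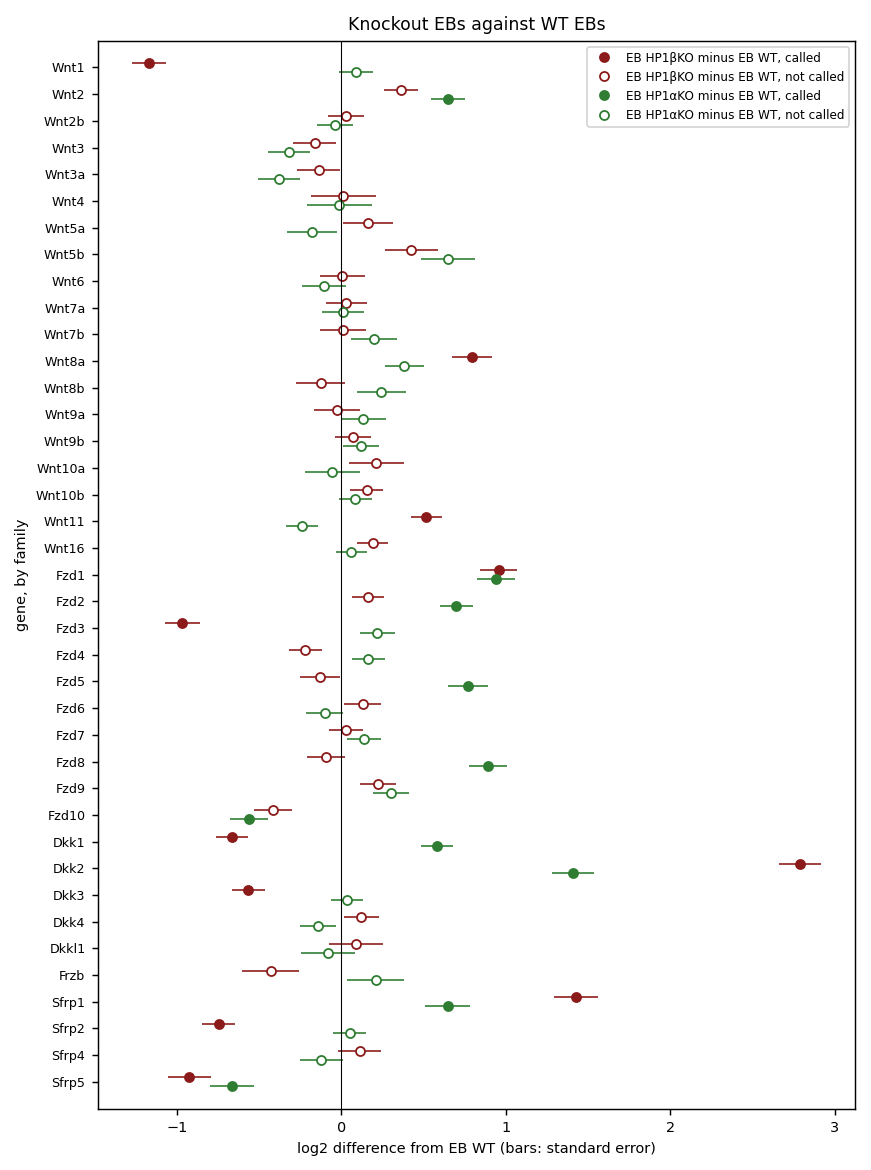
Log2 difference from EB WT (x axis) for each member (y axis, by family), EB HP1βKO in red and EB HP1αKO in green, with bars of 1 standard error and filled points for called genes. Dkk2 stands at 2.79 in HP1βKO and 1.41 in HP1αKO, and Dkk1 lies on opposite sides of 0.

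Of the ligands, Wnt1, which patterns the midbrain and dorsal neural tube, had log2 signals of 3.21 and 3.36 in EB HP1βKO, 4.50 and 4.60 in EB HP1αKO and 4.43 and 4.48 in EB WT. The HP1βKO pair lay below the other 4 libraries, but all 6 lay below the floor. It differed from EB WT by -1.17 ± 0.10 in HP1βKO (SE, adjusted p = 0.000291) and by -1.26 ± 0.10 between HP1βKO and HP1αKO (adjusted p = 0.000147). Wnt2, a mesodermal ligand needed for the early heart and lung, was at 8.49 and 8.32 in EB HP1βKO, 8.70 and 8.69 in EB HP1αKO and 7.99 and 8.10 in EB WT. Both knockout pairs lay above the WT pair, and the difference passed in HP1αKO, at 0.65 ± 0.10 (1.57-fold, adjusted p = 0.0102). Wnt8a, an early ligand of the primitive streak, was at 6.07 and 5.81 in EB HP1βKO, 5.61 and 5.45 in EB HP1αKO and 5.12 and 5.18 in EB WT. Its 3 pairs did not overlap, the WT pair lay below the floor, and the HP1βKO difference was 0.79 ± 0.12 (1.73-fold, adjusted p = 0.00461). Wnt11, a ligand of the polarity branch, was at 5.93 and 5.81 in EB HP1βKO, 5.11 and 5.11 in EB HP1αKO and 5.38 and 5.32 in EB WT. It was the highest in HP1βKO, by 0.52 ± 0.10 over WT (adjusted p = 0.0131) and by 0.76 ± 0.10 over HP1αKO (adjusted p = 0.00169). Only the HP1βKO pair exceeded the floor. The other 15 ligands were called in none of the 3 comparisons. Wnt5a, the main ligand of the polarity branch, was at 8.11 and 7.90 in EB HP1βKO, 7.65 and 7.68 in EB HP1αKO and 7.63 and 8.06 in EB WT, with the HP1αKO pair within the range of the WT pair and 1 HP1βKO library above it. Wnt5b differed by 0.65 ± 0.16 in HP1αKO against WT and missed the threshold (adjusted p = 0.0626).

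Among the receptors, Fzd1 was at 8.41 and 8.18 in EB HP1βKO, 8.27 and 8.28 in EB HP1αKO and 7.26 and 7.41 in EB WT. All 4 knockout libraries lay above both WT libraries, and the 2 knockout pairs overlapped. The difference from WT was 0.96 ± 0.11 in HP1βKO (1.94-fold, adjusted p = 0.00143) and 0.94 ± 0.11 in HP1αKO (1.92-fold, adjusted p = 0.00286). Fzd3, a receptor known for axon guidance and planar polarity in the mouse, had signals of 7.55 and 7.68 in EB HP1βKO, 8.75 and 8.85 in EB HP1αKO and 8.50 and 8.66 in EB WT. The HP1βKO pair lay apart, below the rest, at -0.97 ± 0.11 against WT (1.96-fold lower, adjusted p = 0.000963) and at -1.19 ± 0.11 against HP1αKO (2.27-fold lower, adjusted p = 0.000249). The receptors that stood apart in HP1αKO were Fzd2, Fzd5 and Fzd8.

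Fzd8 was at 5.90 and 5.84 in EB HP1βKO, 6.91 and 6.80 in EB HP1αKO and 5.83 and 6.10 in EB WT, with the HP1αKO pair above the other 4. It was 0.89 ± 0.12 higher in HP1αKO than in WT (1.85-fold, adjusted p = 0.00395), and the difference between HP1βKO and HP1αKO was -0.98 ± 0.12 (adjusted p = 0.00108). Fzd5, a receptor needed in the yolk sac and expressed in pluripotent cells, was at 5.07 and 5.24 in EB HP1βKO, 5.98 and 6.14 in EB HP1αKO and 5.40 and 5.17 in EB WT. Only the HP1αKO pair exceeded the floor; it stood 0.77 ± 0.12 above WT (1.71-fold, adjusted p = 0.00924), and HP1βKO differed from HP1αKO by -0.90 ± 0.12 (adjusted p = 0.00218). Fzd2 was at 8.02 and 8.01 in EB HP1βKO, 8.56 and 8.55 in EB HP1αKO and 7.78 and 7.94 in EB WT. The HP1αKO pair was the highest, 0.70 ± 0.10 above WT (1.62-fold, adjusted p = 0.00586), and HP1βKO differed from HP1αKO by -0.54 ± 0.10 (adjusted p = 0.011). The 2 remaining receptor calls were smaller: Fzd10 differed by -0.56 ± 0.12 in HP1αKO against WT (adjusted p = 0.0292), and Fzd4 by -0.38 ± 0.10 in HP1βKO against HP1αKO (adjusted p = 0.0488). Fzd6, Fzd7 and Fzd9 were called in no EB comparison; Fzd7, the main Frizzled of mouse ESCs, stayed within 8.98 to 9.20 over the 6 EB libraries.

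**Figure D3:**
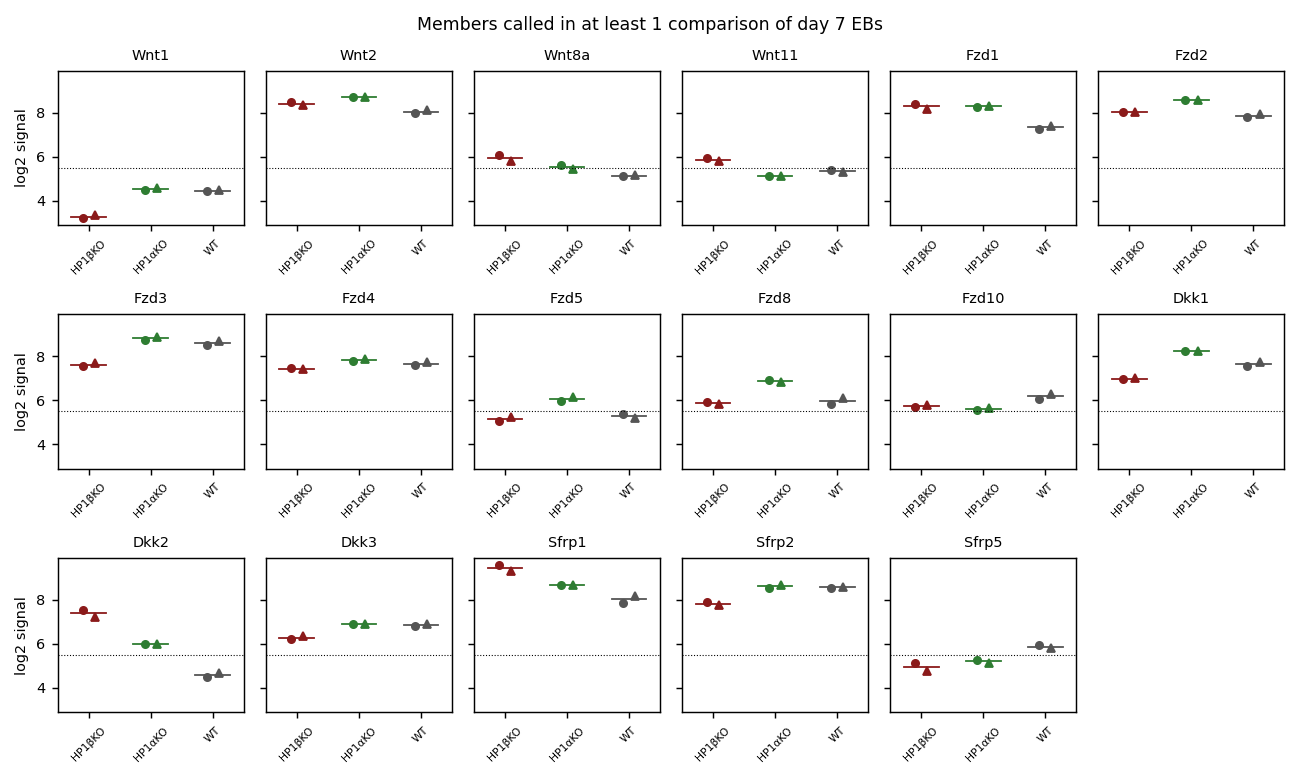
Log2 signal (y axis) of the 17 members called in at least 1 EB comparison, in EB HP1βKO, EB HP1αKO and EB WT (x axis), with a circle for replicate 1, a triangle for replicate 2, a bar for the group mean and a dotted line at the floor of log2 5.49. Replicates lie close together, and Dkk2 is highest in HP1βKO, next in HP1αKO and lowest in WT.

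Of the secreted antagonists, Dkk2, a Dickkopf protein that can act as agonist or antagonist depending on the co-receptor, had signals of 7.53 and 7.23 in EB HP1βKO, 5.99 and 6.01 in EB HP1αKO and 4.50 and 4.69 in EB WT. The 3 pairs were well separated and both WT libraries lay below the floor. The difference from WT was 2.79 ± 0.13 in HP1βKO (6.91-fold, adjusted p = 1.3e-05) and 1.41 ± 0.13 in HP1αKO (2.65-fold, adjusted p = 0.000745), and HP1βKO exceeded HP1αKO by 1.38 ± 0.13 (2.60-fold, adjusted p = 0.000279). Dkk1, the Dickkopf antagonist needed for head formation, was at 6.95 and 7.01 in EB HP1βKO, 8.23 and 8.23 in EB HP1αKO and 7.57 and 7.72 in EB WT. Here the WT pair lay between the knockouts, and no pairs overlapped. The difference from WT was -0.67 ± 0.10 in HP1βKO (1.59-fold lower, adjusted p = 0.00451) and 0.58 ± 0.10 in HP1αKO (adjusted p = 0.0137), and that between HP1βKO and HP1αKO was -1.25 ± 0.10 (2.37-fold lower, adjusted p = 0.000137). Dkk3, a divergent member that does not act through the Lrp co-receptor, was at 6.22 and 6.34 in EB HP1βKO, 6.88 and 6.88 in EB HP1αKO and 6.79 and 6.90 in EB WT. The HP1βKO pair lay below the other 4, at -0.57 ± 0.10 against WT (adjusted p = 0.00969) and -0.60 ± 0.10 against HP1αKO (adjusted p = 0.00639).

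Of the Frizzled-related proteins, Sfrp1 was at 9.58 and 9.31 in EB HP1βKO, 8.68 and 8.65 in EB HP1αKO and 7.86 and 8.17 in EB WT. The pairs did not overlap and followed the same order as Dkk2. The difference from WT was 1.43 ± 0.14 in HP1βKO (2.69-fold, adjusted p = 0.000475) and 0.64 ± 0.14 in HP1αKO (1.56-fold, adjusted p = 0.034), and HP1βKO exceeded HP1αKO by 0.78 ± 0.14 (adjusted p = 0.00829). Sfrp2 was at 7.88 and 7.75 in EB HP1βKO, 8.54 and 8.67 in EB HP1αKO and 8.54 and 8.58 in EB WT. Only the HP1βKO pair stood apart, at -0.75 ± 0.10 against WT (1.68-fold lower, adjusted p = 0.00283) and -0.80 ± 0.10 against HP1αKO (adjusted p = 0.00172). Sfrp5 was at 5.12 and 4.78 in EB HP1βKO, 5.29 and 5.13 in EB HP1αKO and 5.92 and 5.83 in EB WT, above the floor only in WT. It differed from WT by -0.92 ± 0.13 in HP1βKO (1.90-fold lower, adjusted p = 0.00355) and by -0.66 ± 0.13 in HP1αKO (1.59-fold lower, adjusted p = 0.0257). Frzb and Sfrp4 were called in none of the 3 comparisons: Frzb lay at 7.41 and 7.00 in EB HP1βKO, 7.70 and 7.99 in EB HP1αKO and 7.47 and 7.80 in EB WT, and Sfrp4 lay below the floor in all 6.

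Leaving out each of the 4 libraries in turn, 9 of the 11 HP1βKO calls passed every time, the exceptions being Dkk3 (adjusted p = 0.0547 without EB WT replicate 2) and Wnt11 (adjusted p = 0.0667 without EB WT replicate 2 and 0.0569 without EB HP1βKO replicate 1). Of the 10 HP1αKO calls, 3 passed every time (Dkk2, Fzd1 and Fzd8). The members called in HP1αKO numbered 4 without EB HP1αKO replicate 1 (317 of all 19938 genes), 3 without EB HP1αKO replicate 2 (278 genes), 7 without EB WT replicate 1 (591 genes) and 8 without EB WT replicate 2 (653 genes), where all libraries gave 10 members and 1005 genes. The adjusted p of those lost lay between 0.0553 (Wnt2 without EB WT replicate 1) and 0.238 (Fzd10 without EB HP1αKO replicate 1). With a spread shared by all 12 arrays, which is larger because the ESC replicates differed more, 5 members passed in HP1βKO (Dkk2, Wnt1, Fzd3, Sfrp5 and Sfrp2), against 2.13% of all genes, and in HP1αKO 0 passed with the lowest adjusted p at 0.146, against 0.878% of all genes and 7 members at an unadjusted p below 0.05. Between the knockouts 5 passed, against 2.7% of all genes. With each library left out in turn, the calls of Dkk3, Fzd2 and Sfrp1 between the knockouts did not hold every time. That of Fzd4 held in no such fit.

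Lists of cell type markers also differed in level between EBs of the 3 genotypes, and their part in the results above was not tested. Markers of limb, allantois and posterior mesoderm summed to 1336 and 1510 in EB HP1βKO, 483.9 and 511 in EB HP1αKO and 462.9 and 466.9 in EB WT, and 7 of 8 were higher in HP1βKO than in WT. Cardiomyocyte markers summed to 723.5 and 1046 in EB HP1βKO, 13290 and 13420 in EB HP1αKO and 6500 and 7006 in EB WT, with 7 of 8 lower in HP1βKO and 4 of 8 higher in HP1αKO than in WT. Fibroblast markers, which the feeders could also supply, summed to 6423 and 7144 in EB HP1βKO, 5158 and 5430 in EB HP1αKO and 2815 and 3075 in EB WT, with 8 of 10 higher in HP1βKO and 6 higher and 1 lower in HP1αKO, while Thy1 and Fbln5 stayed below the floor in all EB groups. Pluripotency markers summed to 3653 and 3805 in EB HP1βKO, 1743 and 1849 in EB HP1αKO and 1969 and 2197 in EB WT. Of these 8, 4 were higher and 1 lower in HP1βKO than in WT, and 1 was higher and 5 lower in HP1αKO. Neural progenitor markers summed to 220.5 and 223.2 in EB HP1βKO, 407.1 and 415.2 in EB HP1αKO and 363.2 and 450.8 in EB WT, with 5 of 7 lower in HP1βKO than in WT. In HP1αKO the sums lay within the WT range, but 3 of the 7 were lower and 2 higher than in WT. Endothelial and blood markers summed to 3306 and 3774 in EB HP1βKO, 2936 and 3186 in EB HP1αKO and 4073 and 4555 in EB WT. Of these 8, 1 was higher and 3 lower in HP1βKO than in WT, and 2 were lower in HP1αKO. Extraembryonic endoderm markers summed to 2487 and 3066 in EB HP1βKO, 1643 and 1749 in EB HP1αKO and 2413 and 2819 in EB WT. Of these 8, 2 were higher and 1 lower in HP1βKO than in WT, and 1 was higher and 2 lower in HP1αKO. Nascent mesoderm sums lay at 105.1 to 148.2 over the 6 EB libraries, with all 5 markers below the floor. Of these, 1 was higher in HP1βKO and 1 lower in HP1αKO than in WT.

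Beyond the ligand and antagonist families, 65 other Wnt pathway genes of a list of 67 were measured. In EB HP1βKO against EB WT 16 were called (24.6%, 6 higher and 10 lower), with 8.56% of all genes called; in EB HP1αKO against EB WT 6 were called (9.23%, 5 higher and 1 lower), with 5.04% of all genes called, and in EB HP1βKO against EB HP1αKO 14 (21.5%, 5 higher and 9 lower), with 9.77% of all genes called. The target and feedback genes held 5 of 12 called in HP1βKO, 4 lower and 1 higher, and 2 of 12 in HP1αKO. Apcdd1, a membrane inhibitor of Wnt signalling, was at 6.49 and 6.60 in EB HP1βKO, 8.31 and 7.96 in EB HP1αKO and 7.84 and 7.85 in EB WT, with the HP1βKO pair below the other 4, at -1.29 ± 0.13 against WT (adjusted p = 0.000573). Nkd1, a feedback inhibitor induced by Wnt, was at 6.53 and 6.40 in EB HP1βKO, 6.86 and 6.67 in EB HP1αKO and 7.24 and 7.40 in EB WT, and was lower in both knockouts, at -0.85 ± 0.11 in HP1βKO (adjusted p = 0.0025) and -0.55 ± 0.11 in HP1αKO (adjusted p = 0.0296). Tpbg, an inhibitor at the cell surface, was at 5.57 and 5.55 in EB HP1βKO, 6.97 and 7.05 in EB HP1αKO and 6.50 and 6.62 in EB WT, lower than WT in HP1βKO (adjusted p = 0.000525) and higher by 0.45 ± 0.10 in HP1αKO (adjusted p = 0.0383). Sp5, a direct target of β-catenin, differed by -0.96 ± 0.10 in HP1βKO (adjusted p = 0.000579), but its means were below the floor in both groups, as were those of the polarity gene Celsr2, at -0.86 ± 0.14 (adjusted p = 0.00649), and the R-spondin receptor Lgr5, at -0.80 ± 0.19 (adjusted p = 0.0327).

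Higher in EB HP1βKO were Rspo2, an R-spondin that amplifies Wnt signals, at 5.98 and 5.96, against 5.25 and 5.22 in EB HP1αKO and 4.60 and 4.70 in EB WT, and Cdx2, a posterior patterning gene, at 7.41 and 7.02, against 6.11 and 5.90 in EB HP1αKO and 6.14 and 6.60 in EB WT. The difference from WT was 1.32 ± 0.10 for Rspo2 (adjusted p = 0.000104) and 0.84 ± 0.18 for Cdx2 (adjusted p = 0.0243). In HP1αKO, Ccnd1, a cyclin of the G1 phase and a known Wnt target, was at 9.57 and 9.59, against 8.38 and 8.67 in EB WT, a difference of 1.05 ± 0.12 (adjusted p = 0.00205). Rspo2 was higher in HP1αKO by 0.59 ± 0.10 (adjusted p = 0.0106), but lay below the floor in every EB HP1αKO and EB WT library. Of the pathway genes called in HP1βKO against WT, Rspo2, Apcdd1 and Celsr2 also passed with the spread of 12 arrays, and none of the 6 in HP1αKO did.

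**Figure D4:**
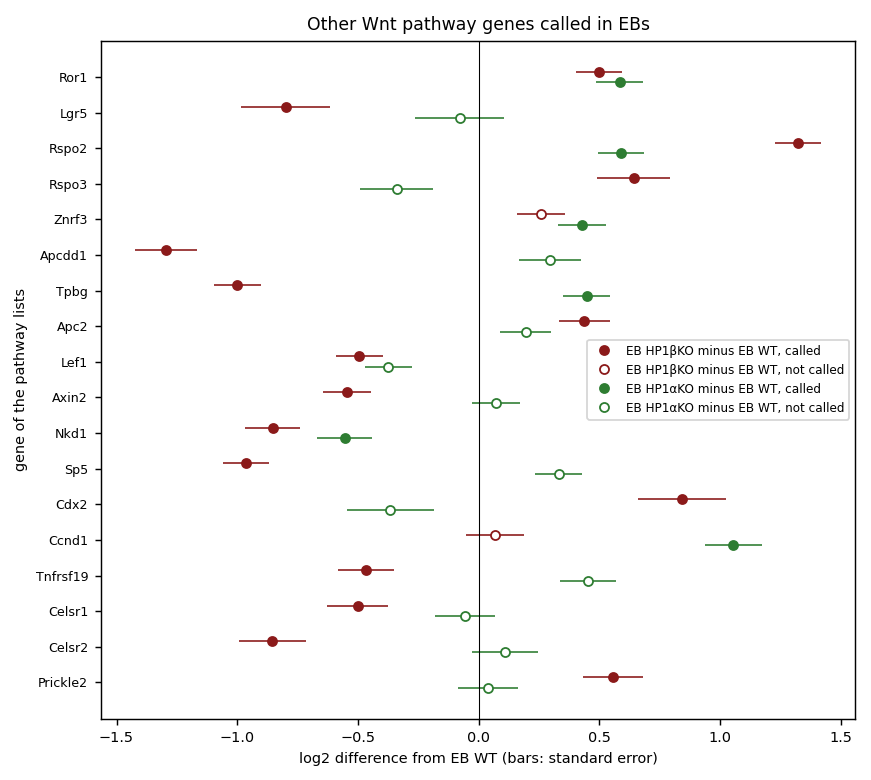
Log2 difference from EB WT (x axis) for the other Wnt pathway genes called in at least 1 knockout (y axis), EB HP1βKO in red and EB HP1αKO in green, bars of 1 standard error, filled points called. Rspo2 is higher and Apcdd1, Tpbg and Sp5 are lower in HP1βKO, and Ccnd1 is higher in HP1αKO.

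EBs were then set against ESCs of the same genotype, which asks what changed with differentiation. In EB WT against ESC WT 16 of 39 were called, 13 higher and 3 lower, with 20.7% of all genes called (12.6% higher and 8.08% lower); in EB HP1αKO against ESC HP1αKO 18 were called (16 higher and 2 lower, with 24.8% of all genes called, 15.1% higher and 9.76% lower), and in EB HP1βKO against ESC HP1βKO 13 (11 higher and 2 lower, with 20.7% of all genes called, 12.6% higher and 8.1% lower). In all 3 genotypes 10 members were called: Wnt2, Wnt5a, Fzd1, Fzd2, Fzd3, Fzd4, Dkk1 and Frzb were higher in EBs, and Fzd5 and Sfrp4 were lower. Another 7 were called in 2 genotypes and 19 in none. How many of all genes were called in several genotypes was not counted, so whether 10 is many for the members cannot be told. Without the second replicates of ESC WT and ESC HP1αKO, whose Cbx5 opposed the label, 18 members were called in WT (21.5% of all genes) and 17 in HP1αKO (29.2%), on 1 ESC library in each. The 10 members called in all 3 genotypes stayed called. In WT, Dkk2, Dkk3, Sfrp1 and Wnt8a gained a call and Fzd9 and Sfrp2 lost theirs; in HP1αKO, Dkk3 and Wnt8a gained a call and Fzd7, Sfrp2 and Wnt5b lost theirs. Wnt8a then differed between EBs and ESCs by -3.42 ± 0.34 in WT (adjusted p = 0.000177) and by -2.36 ± 0.34 in HP1αKO (adjusted p = 0.000856), where all libraries gave -1.76 in WT and -1.11 in HP1αKO and no call. The ESC library left in each is replicate 1, in which Wnt8a lay above replicate 2 by 1.05 in ESC HP1βKO, 2.49 in ESC HP1αKO and 3.33 in ESC WT.

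Of the members, Wnt2 had the largest difference in each genotype. Its signal was 8.49 and 8.32 in EB HP1βKO, against 4.09 and 4.08 in ESC HP1βKO. In HP1αKO it was 8.70 and 8.69 in EBs, against 4.41 and 3.75 in ESCs, and in WT 7.99 and 8.10 in EBs, against 4.25 and 3.72 in ESCs. No EB library came near an ESC library, and the difference was 4.32 ± 0.22 in HP1βKO (20.0-fold, adjusted p = 1.92e-06), 4.62 ± 0.22 in HP1αKO (24.5-fold, adjusted p = 8.18e-07) and 4.06 ± 0.22 in WT (16.7-fold, adjusted p = 2.33e-06). Fzd4, a receptor of endothelial cells, was at 7.45 and 7.41 in EB HP1βKO, against 4.45 and 4.70 in ESC HP1βKO, 7.76 and 7.86 in EB HP1αKO, against 4.65 and 4.57 in ESC HP1αKO, and 7.58 and 7.71 in EB WT, against 4.37 and 4.96 in ESC WT. The EBs were higher by 2.85 in HP1βKO, 3.20 in HP1αKO and 2.99 in WT, with an SE of 0.18 in each. Frzb was at 7.00 to 7.99 in the 6 EB libraries and 3.44 to 4.98 in the 6 ESC libraries, and differed by 2.43 ± 0.46 in HP1βKO, 3.76 ± 0.46 in HP1αKO and 3.42 ± 0.46 in WT (3.24 in HP1αKO and 2.65 in WT without the second replicates of these ESC groups). Dkk1 was at 6.95 to 8.23 in EBs and 4.45 to 6.10 in ESCs, and differed by 1.28 ± 0.28 in HP1βKO, 3.52 ± 0.28 in HP1αKO and 2.29 ± 0.28 in WT. Wnt5a was at 7.63 to 8.11 in EBs and 3.46 to 6.04 in ESCs, and differed by 3.66 ± 0.63 in HP1βKO, 3.25 ± 0.63 in HP1αKO and 2.73 ± 0.63 in WT (2.29 in HP1αKO and 1.80 in WT without those second replicates).

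Fzd5 and Sfrp4 went the other way. Fzd5 was at 5.07 to 6.14 in the EB libraries and 6.98 to 7.81 in the ESC libraries, with no overlap, and differed by -2.11 ± 0.26 in HP1βKO, -1.45 ± 0.26 in HP1αKO and -2.07 ± 0.26 in WT. Sfrp4 was at 3.24 to 3.72 in EBs and 5.28 to 6.38 in ESCs, and differed by -2.14 ± 0.33 in HP1βKO, -2.27 ± 0.33 in HP1αKO and -2.51 ± 0.33 in WT. With all libraries, some members were called in the knockouts and not in WT, or in WT and not in a knockout. Dkk2 differed between EBs and ESCs by 3.20 ± 0.45 in HP1βKO (adjusted p = 0.0008), 1.45 ± 0.45 in HP1αKO (adjusted p = 0.0385) and 0.06 ± 0.45 in WT (not called), and Sfrp1 by 2.65 ± 0.43 in HP1βKO, 1.88 ± 0.43 in HP1αKO and 1.08 ± 0.43 in WT (not called). Without those second replicates the WT differences were -0.74 for Dkk2, then lower in EBs, and 0.97 for Sfrp1. In HP1αKO they were 0.95 for Dkk2 and 2.77 for Sfrp1. The sign for Dkk2 in WT depended on the ESC library kept, as ESC WT was at 5.33 and 3.73. In WT, Dkk2 lay below the floor in both EB libraries (4.50 and 4.69) and in both ESC libraries. Wnt1 differed by 0.03 ± 0.19 in HP1βKO (not called), 1.20 ± 0.19 in HP1αKO and 1.53 ± 0.19 in WT, but lay below the floor in all 12 libraries.

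**Figure D5:**
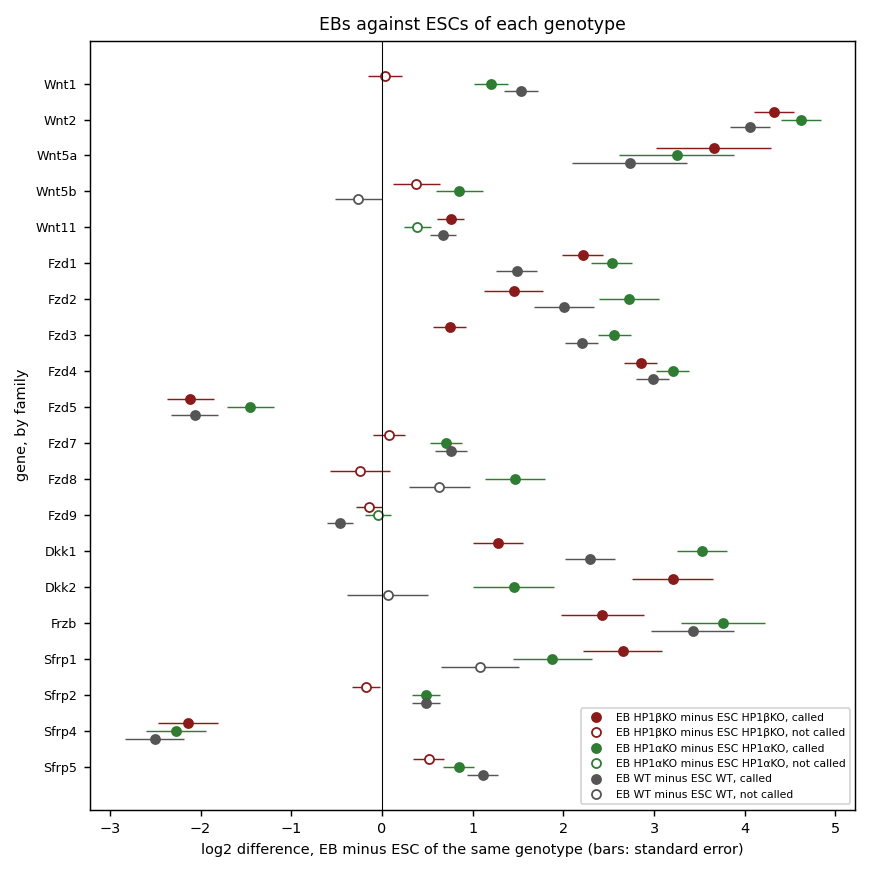
Log2 difference of EBs from ESCs of the same genotype (x axis) for the 20 members called in at least 1 genotype (y axis, by family), HP1βKO in red, HP1αKO in green and WT in grey, bars of 1 standard error, filled points called. Wnt2 lies above 4 in all 3 genotypes, and Fzd3 and Dkk1 are closer to 0 in HP1βKO than in WT.

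In ESCs, 0 members and 0 of all genes were called in HP1βKO against WT, in HP1αKO against WT or between the knockouts (limma, percentage of all genes called 0). At an unadjusted p below 0.05 there were 1 member and 396 of all genes in HP1βKO against WT, 0 members and 121 genes in HP1αKO against WT, and 2 members and 367 genes in HP1βKO against HP1αKO. With the replicate number as a block there were 6 members and 922 genes in HP1βKO against WT. HP1αKO against WT then had 2 members and 200 genes, and HP1βKO against HP1αKO had 8 members and 905 genes. That block also gave 0 calls. With the spread of 12 arrays, again 0 members were called, against 0.00502% of all genes between the knockouts and 0% in each knockout against WT. The nearest was Fzd7, at 9.18 and 8.79 in ESC HP1βKO and 8.31 and 8.23 in ESC WT, a difference of 0.72 ± 0.22 (adjusted p = 1). The ESC replicates differed far more than the EB replicates: the SD of the difference between replicates over the 39 members was 0.53 in ESC HP1βKO, 0.68 in ESC HP1αKO and 0.79 in ESC WT, against 0.23 in EB HP1βKO, 0.15 in EB HP1αKO and 0.23 in EB WT. Over all genes that SD was 0.33 in ESC HP1βKO, 0.42 in ESC HP1αKO and 0.47 in ESC WT, against 0.15 to 0.22 in EBs. In all 3 genotypes 20 members were higher in replicate 1 and 4 in replicate 2. How many of all genes did so was not counted, so whether 20 is many for the members cannot be told. Wnt8a was at 7.54 and 6.48 in ESC HP1βKO, 7.89 and 5.40 in ESC HP1αKO and 8.57 and 5.24 in ESC WT, and Wnt3 at 6.83 and 4.78 in ESC HP1βKO, 5.64 and 4.89 in ESC HP1αKO and 5.96 and 4.21 in ESC WT, with replicate 1 above replicate 2 in every pair. In simulated data with the ESC spread, 12% of 2-fold and 54% of 4-fold changes were found in this design, against 88% and 98% with the EB spread (HP1βKO against WT in each).

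Without those second replicates of ESC WT and ESC HP1αKO, 2 members were called in ESC HP1βKO against ESC WT, where 0.833% of all genes were called: Dkk2 differed by -1.15 ± 0.16 and Wnt5a by -1.70 ± 0.23 (adjusted p = 0.0227 each). The WT side is then 1 library, a replicate 1, set against both HP1βKO replicates, and the spread comes from the EB groups and ESC HP1βKO. Both genes were higher in replicate 1 in all 3 ESC genotypes, Dkk2 by only 0.065 in ESC HP1βKO. Dkk2 lay below the floor in each of these libraries, at 5.33 in the remaining WT library and 4.21 and 4.14 in ESC HP1βKO. Wnt5a exceeded the floor only in that WT library, at 6.04, against 4.60 and 4.10 in ESC HP1βKO. Sums of all 10 feeder fibroblast markers were also higher in replicate 1, at 697.6 and 358.4 in ESC HP1βKO, 992.1 and 335.7 in ESC HP1αKO and 1732 and 315.9 in ESC WT. So were those of nascent mesoderm, at 494.4 and 280.5 in ESC HP1βKO, 267.3 and 123 in ESC HP1αKO and 360.2 and 118.3 in ESC WT. Neural progenitor sums were 618.4 and 381.5 in ESC HP1βKO, 313.8 and 252.1 in ESC HP1αKO and 393.7 and 215.8 in ESC WT. Pluripotency sums were lower in replicate 1 of each genotype. The part of these lists was not tested. Col1a2 was at 7.71 and 5.89 in ESC HP1βKO and at 9.10 in the remaining WT library, and Dcn at 4.93 and 3.65 in ESC HP1βKO and at 6.47 in that library. In ESC HP1αKO against ESC WT 0 members were then called (0.311% of all genes, 6 members at an unadjusted p below 0.05), and between the knockouts 0 (0.281% of all genes, 9 members).

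Whether an effect of a knockout differed between EBs and ESCs was tested directly. For HP1βKO 2 members passed, where 0.818% of all genes did: Fzd3, at -0.97 in EBs and 0.49 in ESCs, a difference of -1.46 ± 0.26 (adjusted p = 0.0363), and Wnt1, at -1.17 in EBs and 0.33 in ESCs, a difference of -1.50 ± 0.27 (adjusted p = 0.0363). Wnt1 lay below the floor in all 12 libraries. For HP1αKO 0 passed (limma, 0.201% of all genes, 3 members at an unadjusted p below 0.05). For Dkk2 the effect of HP1βKO was larger in EBs by 3.14 ± 0.63 and missed the threshold (adjusted p = 0.0614). It passed with the replicate number as a block (adjusted p = 0.0306). That block is shared by EBs and ESCs, while the numbers pair the ESC samples but not the EB samples (correlations -0.47 to 0.11). Without those second replicates, 6 members passed for HP1βKO (3.22% of all genes), namely Fzd3, Wnt1, Dkk2, Sfrp1, Wnt5a and Wnt8a, and 2 for HP1αKO (0.848% of all genes), Dkk2 and Sfrp1, again with 1 library in ESC WT and, for HP1αKO, in ESC HP1αKO.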

How the data were processed

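Total RNA of 2 replicates in each of 6 groups was hybridised to Affymetrix arrays. The authors processed the scans with RMA in Affymetrix Expression Console and deposited log2 signals for 35556 features on 12 arrays, between 1.55 and 13.6, used as deposited; no software versions were found in the labels or methods. The annotation is that of a whole-transcript gene array, whereas the methods name an exon array. Features with 1 symbol (21789; 1621 had several and 12146 none) gave 19938 genes, by the row with the highest mean. The number of arrays limits precision.

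Within EBs and within ESCs, limma 3.58.1 (R 4.3.3; lmFit, eBayes, two-sided) was fitted on the 6 arrays of that state; EBs against ESCs and differences of effects were fitted on all 12. Genes with an adjusted p below 0.05 (Benjamini-Hochberg over all genes) were called. The fit per state was chosen because ESC replicates differ more: on simulated data with 200 changed genes among 19938, the fit shared by 12 arrays called 284 genes in ESC HP1βKO minus ESC WT, 144 of them false, and the fit of 6 arrays called 74, 4 of them false. Replicate numbers pair ESC samples (correlations of deviations 0.22 to 0.41) but not EB samples (-0.47 to 0.11). Values in each library are given for members called within EBs or ESCs, for the 15 with the largest difference where more were called, and for the 5 largest rises and falls from ESCs to EBs among members called in at least 2 genotypes; at most 8 other pathway genes were named per comparison. Members and lists were chosen with earlier results of these data known. Alternatives were the spread, floor, trend, centring, row choice, replicate block and left-out libraries.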

Additional observations from a re-analysis of the deposited data

Results flagged for a closer look

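The effect of HP1βKO differed between EBs and ESCs, by a test of the difference itself, for Fzd3 (-1.46) and Wnt1 (-1.50, with all 12 libraries below the floor). In EBs the HP1βKO pair lay below the WT pair for both genes. In ESCs Fzd3 was at 7.11 and 6.62 in HP1βKO and 6.51 and 6.25 in WT, and Wnt1 at 2.93 and 3.57 in HP1βKO and 3.01 and 2.84 in WT. The adjusted p of 0.0363 for each passed in 2 of 8 fits with 1 library left out for Fzd3 and in 3 of 8 for Wnt1, and became 0.0725 for Fzd3 and 0.0921 for Wnt1 with only the arrays of the 4 groups compared. Without both ESC libraries whose Cbx5 opposes the label the difference was -1.33 for Fzd3 and -1.41 for Wnt1, on 1 library in ESC WT. No group had enough libraries for a test of single outlying samples.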

How the results depend on the processing

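With 2 libraries per group, 1 library can decide a call. No direction of a called gene reversed under any alternative run: of 1794 values of called members and pathway genes, 1473 stayed past the threshold and 321 did not. Only centring and left-out libraries could move a difference, since the other alternatives left the difference of every called gene as it was. Genes not called with all libraries were not counted. Among them, Dkk2 in EB WT against ESC WT went from 0.06 to -0.74 without both libraries whose Cbx5 opposes the label. Sharing the spread over 12 arrays lowered the members called to 5 in EB HP1βKO against EB WT, to 0 in EB HP1αKO against EB WT and to 5 in EB HP1βKO against EB HP1αKO, which follows from the wider ESC spread in that fit. Leaving out each library in turn gave 9 to 12 calls in HP1βKO against WT, 3 to 8 in HP1αKO against WT and 8 to 12 in HP1βKO against HP1αKO. EB minus ESC gave 10 to 13 in HP1βKO, 11 to 18 in HP1αKO (11 without EB HP1αKO replicate 1) and 11 to 18 in WT; ESC comparisons gave 0 throughout. For the difference of the HP1βKO effect between EBs and ESCs, it gave 0 to 3 members (0 without any 1 of the 4 EB libraries, 1 without ESC WT replicate 2 or ESC HP1βKO replicate 1), the floor gave 1 because Wnt1 was not tested, and the arrays of the groups compared gave 1, Sfrp1; for HP1αKO it gave 0. Without both libraries whose Cbx5 opposes the label, ESC HP1βKO against ESC WT gave 2, the HP1βKO difference 6 and the HP1αKO difference 2. The cause was not tested. The replicate block gave 11, 9 and 11 members in the 3 EB comparisons (1273, 658 and 1486 of all genes) and 0 in the ESC comparisons. For EB minus ESC it gave 13 in HP1βKO, 19 in HP1αKO and 16 in WT (4247, 5111 and 4263 of all genes). It gave 3 (Fzd3, Wnt1 and Dkk2) for the difference of the HP1βKO effect (194 of all genes) and 0 for that of the HP1αKO effect (38 of all genes). For EB HP1αKO minus ESC HP1αKO it added Dkk3 (adjusted p = 0.0304). In EBs it ended the calls of Sfrp1 in HP1αKO against WT (adjusted p = 0.0678) and of Fzd4 in HP1βKO against HP1αKO (adjusted p = 0.101).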
